A study of Homo sapiens with 4 samples.

Results

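The genes described here are 5 inhibitors of cyclin-dependent kinases (CDKN1A, CDKN1B, CDKN2A, CDKN2B and CDKN2C) and 5 cyclins of the G1 phase (CCND1, CCND2, CCND3, CCNE1 and CCNE2). They were taken by gene symbol from the count tables, and all 10 were found among 61228 features. RNA-seq libraries came from H1792, an established human lung cancer line whose genotype is labelled WT, and all results therefore come from 1 line. In one group the cells had received the solvent DMSO, and in the other ACBI1, a PROTAC that directs SMARCA2, SMARCA4 and PBRM1 of the SWI/SNF chromatin remodelling complexes to the VHL ubiquitin ligase. Treatment lasted 96 h in both groups. The ACBI1 dose is labelled 1 mM, and counts offer no way to check this unit. Each group held 2 libraries. Nothing in the labels says whether these came from separate cultures, so p-values measure the spread between these libraries, which may be technical.

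Entry into S phase depends on cyclin-CDK complexes. D-type cyclins activate CDK4 and CDK6 and E-type cyclins activate CDK2, and both kinds of complex phosphorylate the retinoblastoma protein, which releases E2F transcription factors. INK4 proteins bind CDK4 and CDK6 and keep D-type cyclins away, whereas CIP/KIP proteins bind whole cyclin-CDK complexes and block CDK2 in particular. In lung cancer, loss of CDKN2A and extra copies of CCND1 are well known.

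Counts assigned to genes ranged from 64281850 to 86010100 per library. Across genes, the replicates of a group correlated at r = 0.990 (DMSO) and 0.993 (ACBI1), and their counts differed by more than sampling noise (chi-square per degree of freedom 161 and 105). Transcripts of 6 epithelial genes summed to 982 and 1035 CPM (counts per 1000000, scaled by TMM) with DMSO. With ACBI1 they summed to 323 and 202 CPM. Of these transcripts, 5 were tested and 4 called lower, beside 10.6% called lower over all tested genes. Those of 5 fibroblast genes summed to 991 and 1941 CPM with DMSO and to 87.5 and 270 CPM with ACBI1, with 3 called lower. Endothelial markers, 3 genes, summed to 12.6 and 48.5 CPM with DMSO and to at most 0.0458 CPM with ACBI1. The 2 of them that were tested were called lower. Leukocyte markers stayed at or below 0.820 CPM in sum, with CD3E at 0 in every library. The lung lineage markers NKX2-1 and SCGB1A1 were also at 0 in every library, and CDH1 reached at most 0.222 CPM. The part of these marker changes in the results below was not tested. In bulk RNA, fewer cells with a transcript and less transcript per cell cannot be told apart.

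Of the 10 genes, 8 passed the filter on low counts (edgeR's filterByExpr) and were tested. Transcripts of the CIP/KIP genes CDKN1A and CDKN1B fell with ACBI1, and CCND2, which was almost absent with DMSO, rose to a level that was still very low. No call was made for CDKN2C, CCND1, CCND3, CCNE1 and CCNE2 at an edgeR adjusted p under 0.05. The 3 calls among 8 tested genes stand beside 17.4% called over all 19159 genes tested, 6.75% of them higher and 10.6% lower. CCND2 passed the filter through its ACBI1 counts alone. Its place among the calls, and among the genes without overlap between groups counted next, was therefore partly fixed by the filter. In 6 of the 8 the ACBI1 libraries did not overlap the DMSO libraries, against 63.2% of all tested genes (31.1% higher and 32.2% lower with ACBI1). The members' share without overlap is therefore not far from that of all genes. Whether their share of calls differs from that of all genes was not tested.

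**Figure D1:**
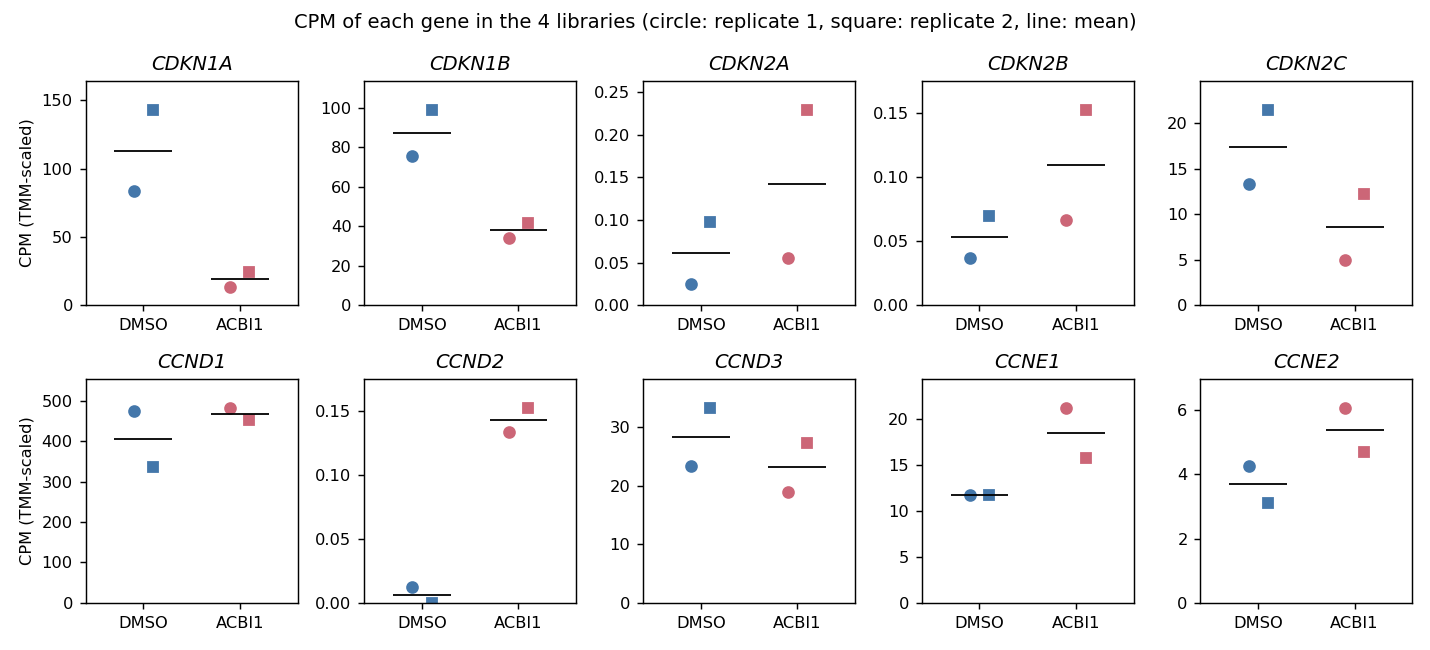
CPM (TMM-scaled, y axis from 0, a scale of its own in each panel) of the 10 genes in the 2 DMSO and 2 ACBI1 libraries, with replicate 1 as circles, replicate 2 as squares and the group mean as a line. CDKN1A and CDKN1B lie lower in both ACBI1 libraries than in both DMSO libraries, and the panels of CDKN2A, CDKN2B and CCND2 reach at most 0.229 CPM.

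CDKN1A encodes p21, the CIP/KIP inhibitor best known as a target of p53 (chromosome 6, 36676460 to 36687339, plus strand, in GENCODE 29 on GRCh38). It was at 83.3 and 143 CPM in DMSO replicates 1 and 2 and at 13.7 and 24.1 CPM in ACBI1 replicates 1 and 2. Both ACBI1 libraries were far below both DMSO libraries, and in each group replicate 2 was the higher one. The group means of 113 ± 41.9 and 18.9 ± 7.39 CPM (SD, n = 2) correspond to a 5.98-fold fall, or -2.58 on the log2 scale (SE 0.37, edgeR adjusted p 0.00980). The long noncoding gene DINOL on the opposite strand covers 4.79% of its exonic length. CDKN1A was called lower under every alternative that was run, the stricter threshold of 0.01 and each left-out library included, with log2 changes from -3.06 to -2.15. Over all tested genes, 3.86% had a lower log2 change.

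CDKN1B encodes p27, the CIP/KIP inhibitor that accumulates in resting cells and is marked for destruction by SKP2 (chromosome 12, 12715058 to 12722371, plus strand). DMSO replicates 1 and 2 held 75.7 and 98.9 CPM, and ACBI1 replicates 1 and 2 held 34.0 and 41.9 CPM. The groups did not overlap, and the gap between them was wider than the gap between replicates. Means of 87.3 ± 16.4 and 38.0 ± 5.55 CPM (SD, n = 2) correspond to a 2.30-fold fall, or -1.20 on the log2 scale (SE 0.20, edgeR adjusted p 0.0151). Without ACBI1 replicate 1 the log2 change was -1.05 and the call was lost (edgeR adjusted p 0.0718), and at the threshold of 0.01 CDKN1B was not called.

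The remaining CIP/KIP gene, CDKN1C, encodes p57, which is best known as an imprinted gene of development. It was much rarer, at 0.418 and 1.52 CPM with DMSO and 0.112 and 0.214 CPM with ACBI1. On the log2 scale it differed by -2.58 (SE 0.75) and missed the threshold (edgeR adjusted p 0.0642). DESeq2 called it lower (adjusted p 0.0136), as did edgeR on every gene with a count and the fit without DMSO replicate 1.

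The shares of CDKN1A and CDKN1B in their summed level are given as a description, with no test. Per kilobase of exons, CDKN1A made up 50.4% and 57.1% of the summed CDKN1A and CDKN1B level in the DMSO libraries, and 27.0% and 34.7% in the ACBI1 libraries. CDKN1A was thus level with or above CDKN1B with DMSO, at a ratio of 1.01 and 1.33, and below it with ACBI1, at a ratio of 0.370 and 0.531.

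**Figure D2:**
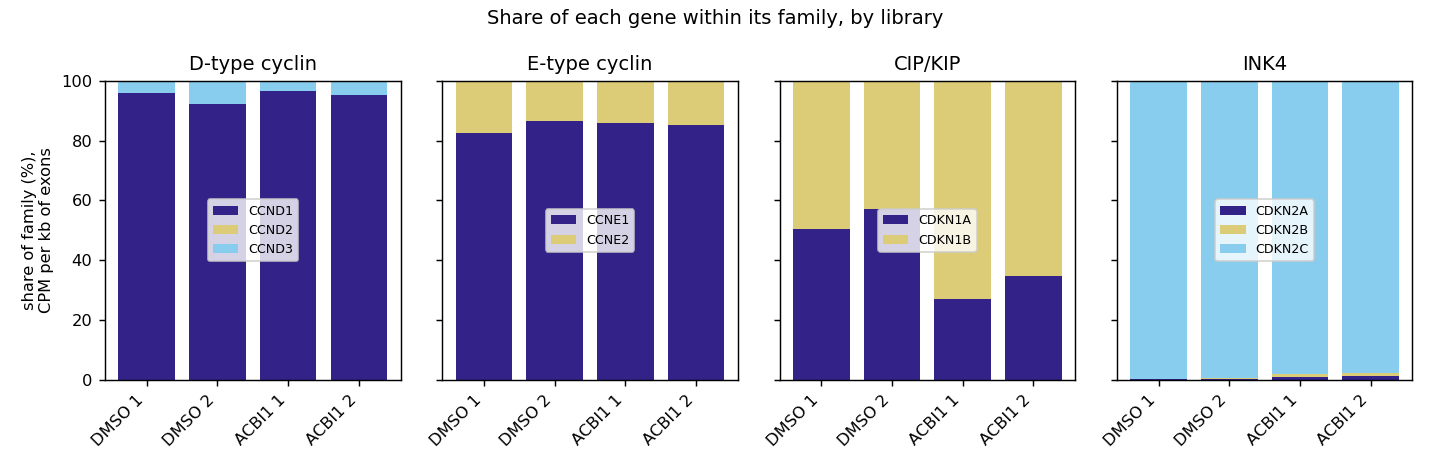
Share of each gene (percent of the summed CPM per kilobase of exons, y axis) among the D-type cyclins, E-type cyclins, CIP/KIP and INK4 genes of the 10, 1 stacked bar per library. CCND1, CCNE1 and CDKN2C hold most of their family in all 4 libraries, and the CDKN1A share is 50.4% and 57.1% with DMSO and 27.0% and 34.7% with ACBI1.

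Stretches before the start sites of CDKN1A, which fell, and CCNE1, whose level was higher in both ACBI1 libraries without passing the test, are shown because these genes lie on opposite sides of the same kinase step. The RefSeq table (GRCh38.p14) held 12 start sites for 7 of the 10 genes. Printed are the bases among the 250 before the start that no GENCODE 29 exon covers, 5′ to 3′, with GC boxes (GGGCGG on either strand) in capitals, at chr6:36678560-36678657 (plus strand, 154 to 57 bases before the start) and chr19:29811741-29811897 (plus strand, 250 to 94 bases before the start).
CDKN1A: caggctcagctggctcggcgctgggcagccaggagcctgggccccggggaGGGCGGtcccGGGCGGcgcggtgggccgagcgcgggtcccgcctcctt
CCNE1: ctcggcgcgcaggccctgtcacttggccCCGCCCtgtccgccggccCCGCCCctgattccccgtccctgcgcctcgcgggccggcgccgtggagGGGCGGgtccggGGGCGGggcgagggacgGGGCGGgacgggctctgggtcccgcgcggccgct
In the whole window of 250 bases, CDKN1A held 4 GC boxes and CCNE1 held 7, and CDKN1B held 1 together with 2 CCAAT boxes (CCAAT on either strand). GC boxes occur in 42.6% of the 35116 such windows over all genes, and CCAAT boxes in 32.0%. None of the 12 windows held an AP-1 site (TGANTCA, in 6.57% of all windows) or an E2F site written as TTTCCCGC, TTTCGCGC, TTTGCCGC or TTTGGCGC on either strand (in 2.79%).

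Among the INK4 genes, CDKN2C was the one with appreciable counts. It encodes p18, which binds CDK4 and CDK6 (chromosome 1, 50960745 to 50974633, plus strand). CDKN2C stood at 13.3 and 21.4 CPM with DMSO and at 5.03 and 12.3 CPM with ACBI1. The highest ACBI1 library came close to the lowest DMSO library without reaching it. The group means were 17.4 ± 5.73 and 8.65 ± 5.13 CPM (SD, n = 2), and the log2 change of -1.01 (SE 0.46) was not called (edgeR adjusted p 0.180). Leaving out 1 library moved it from -1.80 without ACBI1 replicate 2, where it was called (edgeR adjusted p 0.0384), to -0.49 without ACBI1 replicate 1. It was also called without DMSO replicate 1 (log2 change -1.31), but not without DMSO replicate 2 (-0.63). With every gene with a count in the fit, CDKN2C was called lower (edgeR adjusted p 0.00225).

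CDKN2D, which encodes the INK4 protein p19, had 7.28 and 8.67 CPM with DMSO and 3.43 and 6.41 CPM with ACBI1, also without overlap. The difference of -0.70 on the log2 scale (SE 0.36) missed the threshold (edgeR adjusted p 0.225).

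Transcripts of CDKN2A and CDKN2B, the neighbouring genes for p16 and p15 on the short arm of chromosome 9, were close to absent in all 4 libraries. CDKN2A (21967753 to 21995301, minus strand), which also encodes ARF in another reading frame, had 2 and 7 counts with DMSO and 5 and 15 with ACBI1. CDKN2B (22002903 to 22009363, minus strand) had 3 and 5 counts with DMSO and 6 and 10 with ACBI1. Neither passed the filter. In pooled counts per library size, ACBI1 over DMSO was 2.20 (95% exact counting interval 0.957 to 5.48) for CDKN2A and 1.98 (0.799 to 5.34) for CDKN2B, both including no change, and the groups overlapped for both genes.

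MTAP, which encodes an enzyme of methionine salvage and lies next to CDKN2A, was at 57.1 and 39.4 CPM with DMSO and at 73.0 and 113 CPM with ACBI1. The difference of 0.95 on the log2 scale (SE 0.28) missed the threshold (edgeR adjusted p 0.0661). The antisense transcript CDKN2B-AS1 had 9 and 20 counts with DMSO and 2 and 4 with ACBI1, too few for the test. Its ratio of pooled counts per library size, ACBI1 over DMSO, was 0.205 (95% exact counting interval 0.0695 to 0.502). The interval lay below no change, but it leaves out the spread between libraries and is not a test. CDKN2B-AS1 covers 7.88% of the exonic length of CDKN2A on the opposite strand, and without a stated strand setting reads there cannot be told apart.

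The D-type cyclins were dominated by CCND1, which encodes cyclin D1 (chromosome 11, 69641087 to 69654474, plus strand). CCND1 reached 476 and 337 CPM with DMSO and 482 and 452 CPM with ACBI1. The groups overlapped, since DMSO replicate 1 lay above ACBI1 replicate 2. The difference of 0.20 on the log2 scale (SE 0.22) was not called (edgeR adjusted p 0.561). It was -0.030 without DMSO replicate 2 and 0.48 without DMSO replicate 1. LTO1 on the opposite strand covers 10.3% of the exonic length of CCND1.

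CCND3 encodes cyclin D3 (chromosome 6, 41934933 to 42050357, minus strand). With DMSO it was at 23.4 and 33.3 CPM, and with ACBI1 at 19.0 and 27.3 CPM. The groups overlapped, and in each of them replicate 2 was the higher one. The log2 change was -0.29 (SE 0.26) with an edgeR adjusted p of 0.479. It came to -0.05 without ACBI1 replicate 1, to -0.02 without DMSO replicate 2 and to -0.58 without ACBI1 replicate 2.

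CCND2, for cyclin D2 (chromosome 12, 4273772 to 4305350, plus strand), had 1 and 0 counts with DMSO and 12 and 10 counts with ACBI1. In CPM these are 0.0123 and 0 against 0.134 and 0.153. The ratio of pooled counts per library size, ACBI1 over DMSO, was 21.8, with a 95% exact counting interval from 3.52 to 898. edgeR called the gene higher (log2 change 4.15, SE 0.97, adjusted p 0.0354), a fitted value that depends on the prior count. DESeq2 did not call it, nor did edgeR without DMSO replicate 1 (adjusted p 0.0523, log2 change 6.45) or without DMSO replicate 2 (adjusted p 0.150, log2 change 3.38). Without either ACBI1 library CCND2 did not pass the filter. Another gene on the same strand, AC008012.1, covers 13.8% of its exonic length. Per kilobase of exons, CCND2 held at most 0.0217% of the summed D-type cyclin level in a library.

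Per kilobase, CCND1 held 96.1% and 92.4% of the summed D-type cyclin level with DMSO and 96.8% and 95.2% with ACBI1. Most of the remainder was CCND3, whose share was 3.93% and 7.60% with DMSO and 3.18% and 4.78% with ACBI1. The shares of the groups overlapped.

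CCNE1, for cyclin E1 (chromosome 19, 29811898 to 29824308, plus strand), stood at 11.7 and 11.8 CPM with DMSO and at 21.2 and 15.8 CPM with ACBI1. Both ACBI1 libraries were higher than both DMSO libraries. The DMSO libraries were almost equal, while the ACBI1 libraries differed more from each other. Means of 11.7 ± 0.0409 and 18.5 ± 3.83 CPM (SD, n = 2) differed by 0.66 on the log2 scale (SE 0.22), which did not pass (edgeR adjusted p 0.0932). DESeq2 called it higher (adjusted p 0.0470), and over the 7 other tools, scalings and filters run on all 4 libraries without a block the adjusted p ranged from 0.0470 to 0.0953. Without ACBI1 replicate 1 the log2 change was 0.44, and without ACBI1 replicate 2 it was 0.85.

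CCNE2, for cyclin E2 (chromosome 8, 94879770 to 94896678, minus strand), had 4.26 and 3.10 CPM with DMSO and 6.05 and 4.70 CPM with ACBI1. The groups did not overlap, but the lowest ACBI1 library was close to the highest DMSO library. At 0.55 on the log2 scale (SE 0.31), the difference was not called (edgeR adjusted p 0.272). It ranged from 0.33 to 0.80 with 1 library left out. INTS8 on the opposite strand covers 37.0% of the exonic length of CCNE2, so its counts carry some uncertainty. INTS8 itself was at 42.9 and 57.1 CPM with DMSO and at 45.6 and 65.1 CPM with ACBI1. CCNE1 made up 82.6% and 86.8% of the E-type level per kilobase with DMSO and 85.8% and 85.3% with ACBI1, so that the share of each gene overlapped between groups.

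**Figure D3:**
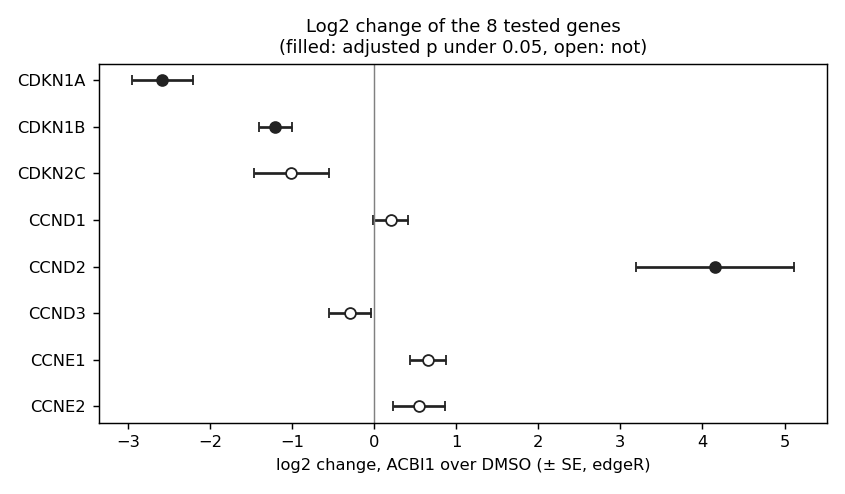
Log2 change (ACBI1 over DMSO, x axis) of the 8 tested genes from the edgeR fit, with bars of 1 SE to either side and filled points for an adjusted p under 0.05. CDKN1A (-2.58) and CDKN1B (-1.20) are the called falls, CCND2 (4.15) rests on 1 DMSO count and 22 ACBI1 counts, and the other 5 are open.

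Levels were compared between genes per kilobase of exons, and the place of CCND3 in the order depends on the length used. With DMSO the order was CCND1 at 84.2 ± 20.3, CDKN1A at 37.0 ± 13.8 and CDKN1B at 31.1 ± 5.82 CPM per kb (SD, n = 2). CDKN1A and CDKN1B overlapped each other. After a gap followed CDKN2C at 5.24 ± 1.73, CCND3 at 4.89 ± 1.21 and CCNE1 at 4.61 ± 0.0160 CPM per kb (SD, n = 2), neighbours whose values also overlapped, and then CCNE2 at 0.837 ± 0.187 CPM per kb (SD, n = 2). With ACBI1, CCND1 was again first at 96.7 ± 4.35, followed by CDKN1B at 13.5 ± 1.97 CPM per kb (SD, n = 2). CCNE1 at 7.27 ± 1.50 and CDKN1A at 6.20 ± 2.42 CPM per kb (SD, n = 2) came next and overlapped, so that CDKN1A was no longer set apart from the middle group. CCND3 at 3.99 ± 1.01 and CDKN2C at 2.61 ± 1.55 CPM per kb (SD, n = 2) followed, which overlapped, and CCNE2 was at 1.22 ± 0.218 CPM per kb (SD, n = 2). CDKN2A, CDKN2B and CCND2 came last in both groups, with means of at most 0.0329 CPM per kb. With the longest transcript in place of all exons, CCND3 moved up. It was then at 9.78 and 13.9 CPM per kb with DMSO. CDKN2C reached at most 7.39 and CCNE1 at most 5.76 CPM per kb there, so neither overlapped CCND3. With ACBI1, CCND3 at 7.95 and 11.4 CPM per kb exceeded CDKN1A at 6.03 and 10.6 in each library, though their ranges overlapped.

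The summed CDKN1A and CDKN1B level per kilobase was 9.75 and 15.4 times the summed CCNE1 and CCNE2 level in the DMSO libraries. In the ACBI1 libraries it was 1.71 and 3.14 times that level. CCND1 exceeded CDKN1A by 3.61 and 1.49 times with DMSO and by 22.3 and 11.8 times with ACBI1. Both ratios were chosen after the values were seen and carry no test.

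Kinases and regulators that act with these genes were read from the same fit. CDK2, the partner of the E-type cyclins, rose by 0.94 on the log2 scale (SE 0.16, edgeR adjusted p 0.0153), with 41.7 and 44.1 CPM with DMSO and 88.1 and 76.1 CPM with ACBI1. CDK4 and CDK6, the partners of the D-type cyclins, had log2 changes of 0.21 (edgeR adjusted p 0.433) and 0.41 (0.193). Whether the change of CDK2 differed from theirs was not tested. Other genes cover 16.8% of the exonic length of CDK2 and 43.2% of that of CDK4. Of 18 partners and regulators, 5 were called higher and none lower, beside 6.75% higher and 10.6% lower over all tested genes. The median log2 change of the 18 was 0.24, beside 0.01 over all tested genes. Those with the largest change besides CDK2 were CKS1B (log2 change 1.12, edgeR adjusted p 0.0275), whose product helps SKP2 to recognise p27, CDC25A (1.04, 0.0300), a phosphatase that activates CDK2, and SKP2 itself (0.90, 0.0348). CKS2, the fifth, had a log2 change of 0.79. The number called in this list was 0 at the threshold of 0.01. It fell with each library left out, most without ACBI1 replicate 1.

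Downstream genes are read beside 6.75% called higher and 10.6% lower over all tested genes. Of 13 pocket protein and E2F-DP genes, 3 were called higher and 1 lower, with a median log2 change of 0.41. These were E2F2 (log2 change 3.10, edgeR adjusted p 0.00141), E2F1 (1.93, 0.00485), E2F8 (1.52, 0.0145) and, lower, E2F7 (-1.76, 0.0052). Of 23 S phase genes regulated by E2F, 19 were called higher and none lower, and the median log2 change was 1.23. UNG, a DNA repair enzyme, had the largest (1.97, edgeR adjusted p 0.00259), followed by TYMS (1.88, 0.00384), MCM3 (1.74, 0.00396) and MCM5 (1.72, 0.00534). Other genes cover 46.6% of the exonic length of TYMS. The E-type cyclins, which are also E2F targets, had log2 changes of 0.66 and 0.55 and so lay below that median, with no test of the difference.

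Since CDKN1A is a p53 target, 23 further p53 targets were examined, of which 22 were tested. The counts were 4 lower and 1 higher, with a median log2 change of -0.37, and 17 were not called, a share of calls near the 17.4% of all tested genes. TP53INP1 fell from 2.84 and 8.47 to 0.290 and 1.05 CPM (log2 change -3.09, edgeR adjusted p 0.0441), and BTG2 had a log2 change of -2.39 (0.0495), which was -1.06 and not called without DMSO replicate 2. PLK3 (-1.41, 0.0300) and TP53I3 (-1.11, 0.0221) were the other falls, and ZMAT3 had a log2 change of 0.65 (0.0340). MDM2, the p53 target that restrains p53, was named after its values were seen: it was at 101 and 95.2 CPM with DMSO and at 88.7 and 93.8 CPM with ACBI1 (log2 change -0.10, edgeR adjusted p 0.678). With a library left out, the number called among p53 targets rose without DMSO replicate 1 and fell without each of the other libraries. It fell most without ACBI1 replicate 1, where all 4 falls named here kept their direction (log2 changes from -2.41 to -1.15). Direction alone is not a call. At the threshold of 0.01 the number called was 0. BTG2 also lost its call with library size only (edgeR adjusted p 0.0513), among genes averaging 5 CPM or more (edgeR adjusted p 0.0525) and by limma-voom (adjusted p 0.113).

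CCND1 is a common readout of ERK signalling, and 15 other ERK outputs were examined beside it. Of these, 6 were called lower and none higher, beside 10.6% lower and 6.75% higher over all tested genes. The median log2 change of the 15 was -0.47. EPHA4 (log2 change -3.90, edgeR adjusted p 0.0136), IER3 (-3.69, 0.00366), DUSP5 (-3.00, 0.00141) and DUSP4 (-2.58, 0.00259) had the largest falls. EPHA4 is a receptor kinase, IER3 an early response gene, and DUSP5 and DUSP4 are phosphatases that switch off ERK. Other genes cover 26.5% of the exonic length of IER3. CCND1, at a log2 change of 0.20, was not among the genes that fell.

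**Figure D4:**
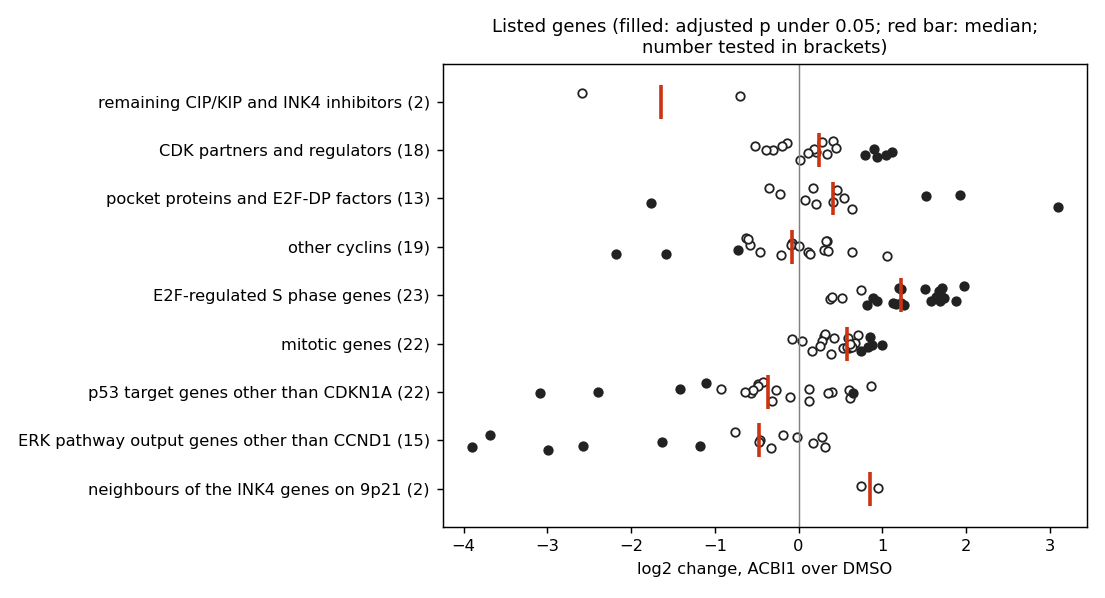
Log2 change (ACBI1 over DMSO, x axis) of every tested gene in each list (y axis, number tested in brackets), with filled points for an adjusted p under 0.05 and a red bar at the list median. Of 23 S phase genes regulated by E2F, 19 are filled, all to the right of 0, and of 15 ERK outputs 6 are filled, all to the left. Over all tested genes, 17.4% were called.

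The log2 changes of the 8 tested genes were compared across the settings. These alternatives are not independent: the threshold of 0.01 reuses the reported fit, so no direction could change there, and the scalings refit the same counts. Of 100 values under alternatives, 87 kept both direction and side of the threshold, 6 lost the call, 6 gained one and 1 changed sign. CDKN1A kept its call in each of them. Over all genes the share called moved too: 4.09% at the threshold of 0.01, 41.3% with the block, 21.3% without DMSO replicate 1, 12.8% without DMSO replicate 2, 6.89% without ACBI1 replicate 1 and 8.84% without ACBI1 replicate 2. CCND1, CCND3 and CCNE2 were called in none, the replicate block included.

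**Figure D5:**
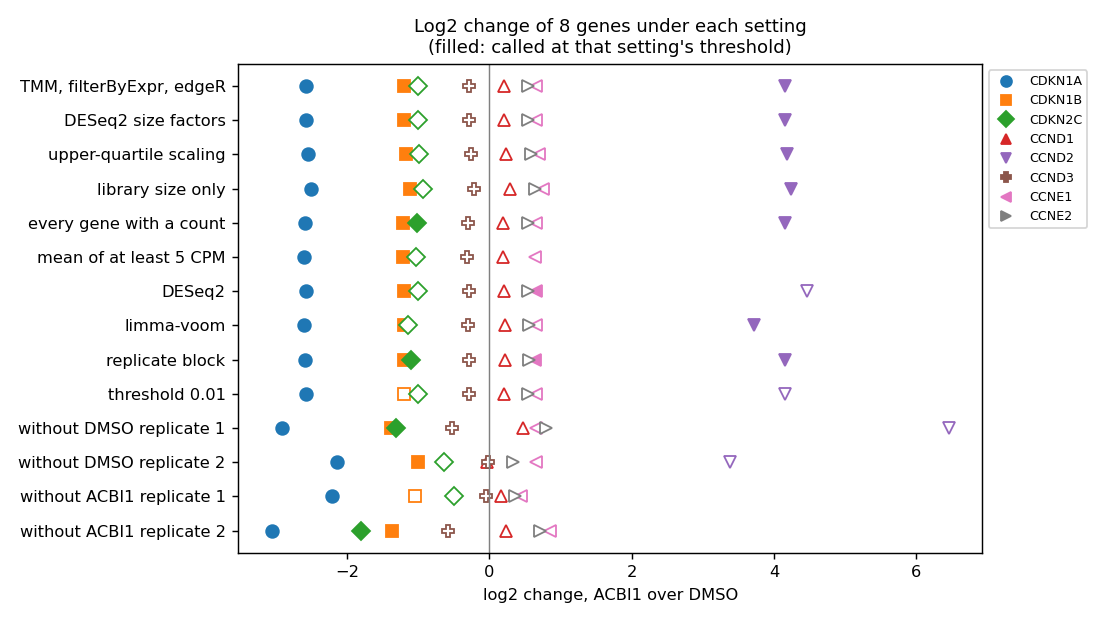
Log2 change (ACBI1 over DMSO, x axis) of the 8 tested genes under the test as reported (top line) and each alternative (y axis), with filled symbols for calls at that setting's threshold. CDKN1A stays between -3.06 and -2.15 and is filled throughout, while CDKN2C spreads from -1.80 to -0.49 when a library is left out.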

How the data were processed

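RNA-seq read counts per gene symbol were deposited by the authors as whole numbers, not normalized, for 4 libraries of H1792 cells. The submitters' processing notes list TopHat2 2.1.1, HTSeq 0.11.0 and hg38, without role or order; annotation and strand setting are not given in the sources used here. Reads given to no gene (13.9% to 15.4% of those listed) were left out. Groups and replicate numbers came from the sample titles. Genes were filtered with filterByExpr (minimum count 10, total 15; 19159 kept), scaled by TMM and fitted in edgeR 4.0.16 under R 4.3.3 (glmQLFit, glmQLFTest, two-sided, treatment alone). Adjusted p-values are Benjamini-Hochberg over all 19159 genes, with a threshold of 0.05. The SE is the log2 change over the square root of F. The fit was also run on counts simulated from its own dispersions, which cannot show how well it holds for these libraries. The depth allows 0.0349 to 0.0467 CPM for a count of 0 (3 counts); such limits and the 95% intervals cover counting error only. Exon lengths, overlaps and positions came from GENCODE 29, and sequences from RefSeq.

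The genes, lists and tests were chosen with earlier results of these data known. The text names all 10 genes, CDKN1C, CDKN2D, CDK2, CDK4 and CDK6, genes whose exons overlap them, and from a list the called genes of largest change, up to 4; CKS2, ZMAT3, MDM2 and MTAP were added after their values were seen. Alternatives were other scalings and filters, DESeq2 1.42.0, limma-voom (limma 3.58.1), a replicate block, a threshold of 0.01, another gene length, and each library left out, where the lone library is assumed to vary like the other group.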

Additional observations from a re-analysis of the deposited data

How the results depend on the processing

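All 10 alternatives planned for the test were run, with each library left out as one of them. The 3331 genes called became 5518 with every gene with a count, 783 at a threshold of 0.01 and 1379 to 4292 with 1 library left out. The number called among the 10 genes, 3, became 4 with every gene with a count, beside 16.8% of all genes in that fit. It was 2 among genes averaging 5 CPM or more, beside 22.9%, where CCND2 and CCNE2 were not tested. At a threshold of 0.01 it was 1, beside 4.09%. It fell without DMSO replicate 2 and without ACBI1 replicate 1. The 47 listed genes called became 16 at that threshold and ranged from 26 to 54 with 1 library left out. The log2 change of CCND1 lay between -0.030 and 0.48 with 1 library left out, the lowest value being that without DMSO replicate 2; the cause was not tested. Same-numbered libraries deviated together across genes (r = 0.44 over 19159 genes), but with 2 pairs and no label that ties a number to a batch they share only a number. With the replicate number as a block, 7909 genes were called, 5 among the 10 genes (CDKN2C and CCNE1 in addition to CDKN1A, CDKN1B and CCND2) and 89 among the listed genes. The block also brought CDKN1C (edgeR adjusted p 0.00137), CDKN2D (0.0187) and CDK6 (0.0286) past the threshold. With the longest transcript in place of all exons, the share of CCND1 was 88.4% with DMSO and 91.8% with ACBI1, that of CCNE1 84.9% with ACBI1, that of CDKN1A 59.6% with DMSO, and that of CDKN2C 99.1% and 95.9%. CDKN2A, CDKN2B and CCND2 are limited by depth, with at most 15 counts in a library.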

Other observations

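Cyclins outside the G1 group were mostly not called. Of 19 tested, 3 fell and none rose, a share of calls near the 17.4% of all tested genes, with a median log2 change of -0.08. The number called was 6 by DESeq2, 5 with every gene with a count and 0 at the threshold of 0.01. It rose without DMSO replicate 1 and fell without each of the other libraries, most without ACBI1 replicate 1. CCNG2, a cyclin linked to cell cycle exit, fell from 11.6 and 19.3 CPM with DMSO to 2.95 and 3.89 CPM with ACBI1 (log2 change -2.18, edgeR adjusted p 0.0115). CCNJL (-1.59, 0.0202) and CCNI (-0.73, 0.0337) were the other falls. CCNJL lost its call without ACBI1 replicate 1 (edgeR adjusted p 0.0714), and CCNI lost it without DMSO replicate 2 (0.0672), ACBI1 replicate 1 (0.184) or ACBI1 replicate 2 (0.149). The mitotic cyclins CCNB1 and CCNB2, named after their values were seen, had log2 changes of 0.30 and -0.08 and were not called.

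Of 22 mitotic genes, 5 were called higher and none lower, beside 6.75% higher and 10.6% lower over all tested genes. The median log2 change of the 22 was 0.59. UBE2C (log2 change 0.99, edgeR adjusted p 0.0384), CENPF (0.87, 0.0241), BIRC5 (0.85, 0.0330) and MKI67 (0.83, 0.0347) had the largest. The number called was 12 when every gene with a count was tested and 0 at the threshold of 0.01. It rose without DMSO replicate 1 and fell without each of the other libraries, most without ACBI1 replicate 2.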
